A study of Mus musculus with 16 samples.

Results

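The comparison of combined alternate-day fasting and enzalutamide with vehicle is described here over all genes that could be tested. It set 4 tumours labelled ADF + ENZ against 4 labelled Vehicle, and 18946 of the 55414 genes in the count table had enough reads for a test. The tumours were subcutaneous grafts of B6MyC-CaP cells, a prostate cancer line whose source was a C57BL/6-backcrossed Hi-MYC transgenic mouse, in male C57BL/6 mice aged 6 weeks at implantation. ADF+ENZ mice were given 20 mg/kg enzalutamide by gavage each day and alternated 24 h without food with 24 h of free feeding. Vehicle mice ate chow freely. The 4 tumours given enzalutamide with free feeding (ENZ) and the 4 on alternate-day fasting without the drug (ADF) are used only to place values side by side or for a direct test against ADF+ENZ. All 16 tumours came from the same cell line, and whether mice were castrated is not stated in the labels. A graft of this kind holds host stroma, vessels and immune cells as well as tumour cells, so that in bulk RNA a change in the number of cells of a type and a change in RNA per cell cannot be told apart. Whether a mouse had last fasted or fed when its tumour was taken, and whether each tumour came from its own mouse, is not stated in the labels. All p-values therefore measure only the spread between these samples, which may be technical.

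Androgens such as testosterone and dihydrotestosterone drive genes of prostate growth and secretion. Enzalutamide is an antiandrogen that blocks this signal and is used against prostate cancer. Fasting lowers circulating glucose, insulin and IGF-1 and raises glucocorticoid and fatty acids, and cells answer through FOXO, mTOR, PPAR and the glucocorticoid receptor. Many prostate genes that respond to androgen, such as Fkbp5 and Zbtb16, also respond to the glucocorticoid receptor, which binds similar DNA sites.

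Each Vehicle library had 15722655 to 18313259 counts in genes, and each ADF+ENZ library 10072489 to 25505655. Of all reads, the share that did not align was 9.10%, 8.69%, 7.71% and 7.47% in the Vehicle libraries and 11.3%, 11.1%, 16.7% and 11.4% in the ADF+ENZ libraries. These ranges did not overlap (exact two-sided permutation p = 0.0286, the smallest that 70 assignments allow, and 0.143 after Benjamini-Hochberg adjustment over 5 library measures). In ENZ libraries it was 8.13% to 12.1% and in ADF libraries 9.64% to 12.2%. On the first principal component of the 8 libraries, with 46.2% of the variance of 1000 genes, Vehicle lay from -23.3 to -16.3 and ADF+ENZ replicates 1 to 4 at 18.9, 12.3, 41.1 and 6.61. ADF+ENZ replicate 3, the smallest library, stood apart from the other 3 on that component and in reads not aligned.

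The labelled cell type was checked against epithelial genes chosen after their values were seen. Krt8 and Krt18, keratins of simple epithelium, were at 502, 649.6, 573 and 649.9 CPM and 109, 131, 117 and 176 CPM in Vehicle, where CPM is the count scaled by library size and TMM factor. The prostate transcription factor gene Hoxb13 was at 9.63, 9.203, 11.1 and 10.1 CPM. Epcam, an epithelial adhesion gene, did not exceed 0.808 CPM in the 8 libraries and Cdh1 did not exceed 5.26 CPM, whereas the mesenchymal filament gene Vim was at 3646, 2429, 3574 and 2363 CPM in Vehicle and 2509, 2810.4, 2717 and 2969 CPM in ADF+ENZ. Pbsn, a defining gene of androgen-dependent luminal cells, had 0 counts in all 8 libraries, which allows up to 0.0443 CPM in Vehicle and 0.0490 CPM in ADF+ENZ from 3 counts per group, for counting error only. Tmprss2 was at 0.238, 0.171, 0.196 and 0.608 CPM in Vehicle and 0.0817, 0.265, 0.219 and 0.202 CPM in ADF+ENZ. The whole list of luminal markers, keratins included, summed to 687 to 912 CPM in Vehicle and 339.7 to 976 in ADF+ENZ.

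In edgeR's quasi-likelihood test at an adjusted p under 0.05, 2369 genes (12.5% of those tested) differed between ADF+ENZ and Vehicle, 1131 higher (5.97%) and 1238 lower (6.53%). Of these, 548 (2.89% of those tested) differed by more than 2-fold, 188 higher and 360 lower. The CPM values of ADF+ENZ and Vehicle lay in separate ranges for 3269 of all tested genes (17.3%), called or not. Of the 2369 called genes, 1976 (10.4% of those tested) were among these. The median log2 change over all tested genes was 0.000125. With the share of reads not aligned as a covariate, an alternative chosen after seeing the data, 112 genes passed (29 higher, 83 lower), and all 2369 kept their direction. Leaving out ADF+ENZ replicate 3 left 1202 calls, Vehicle replicate 3 left 1503 and Vehicle replicate 4 left 1548, and 997 of the 2369 passed in each of the 8 fits that leave out 1 of these libraries. Because the groups were separate on reads not aligned, the part of that measure in the calls cannot be told apart from the treatment by these 8 libraries. Genes named below passed in all 8 of those fits unless another outcome is given.

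**Figure D1:**
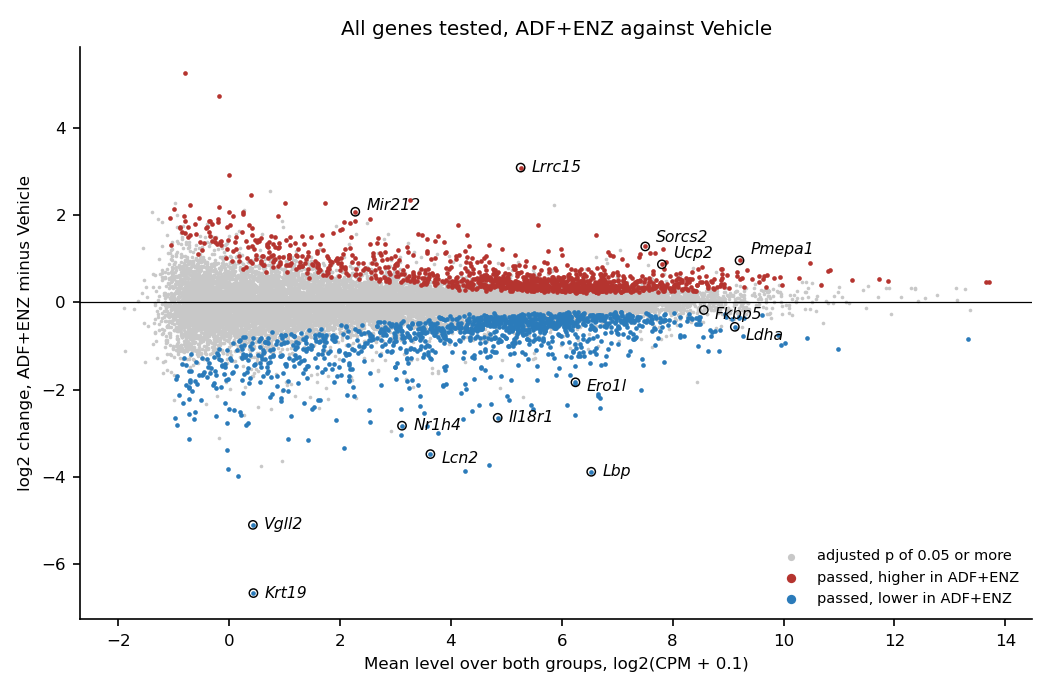
Change of each of the 18946 genes tested (vertical axis, log2 ADF+ENZ minus Vehicle) against its mean level (horizontal axis, log2 of CPM + 0.1), with genes past the edgeR threshold in red (higher) or blue (lower). Lbp, Lcn2 and Il18r1 lie far below the line at well-measured levels, while Fkbp5 lies close to it.

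A pair of well-known androgen-responsive genes did not pass the test. Fkbp5, a cochaperone of steroid receptors, was at 306, 422, 443 and 429 CPM in Vehicle and 402, 294, 451 and 273 CPM in ADF+ENZ, with overlapping ranges and a log2 change of -0.17 (SE 0.198, edgeR adjusted p = 0.609). Zbtb16, a transcription factor gene induced by androgen and glucocorticoid, had a log2 change of -0.60 (SE 0.362, edgeR adjusted p = 0.307) with overlapping ranges. Against the same Vehicle libraries the log2 values for enzalutamide without fasting were -1.23 for Fkbp5 and -2.63 for Zbtb16. The direct difference between ADF+ENZ and ENZ was 1.06 for Fkbp5 (edgeR adjusted p = 0.02396) and 2.03 for Zbtb16 (0.0306). Each of these 2 calls was lost without ADF+ENZ replicate 1 or 3 or ENZ replicate 2, 3 or 4, and with either library covariate.

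**Figure D2:**
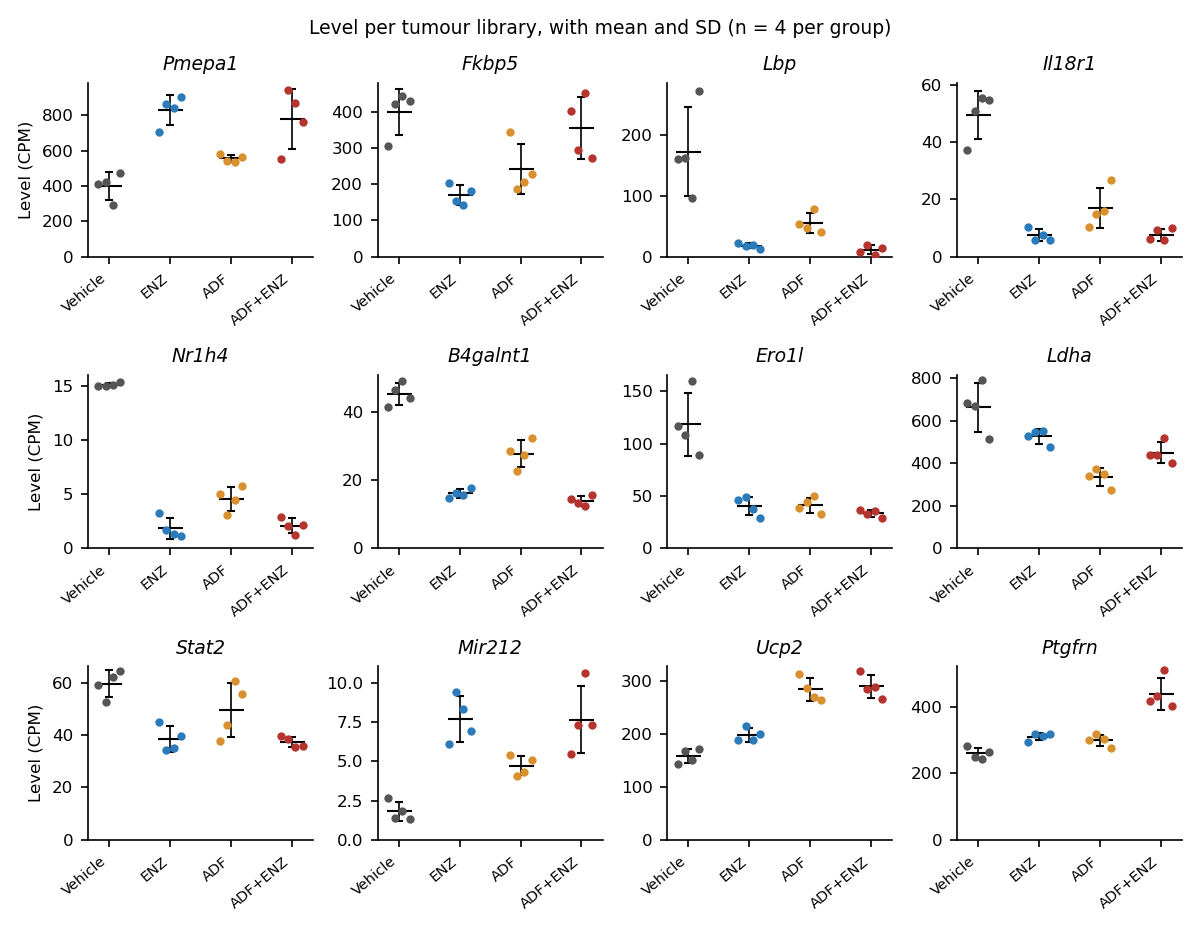
Level (CPM, vertical axis from 0) of 12 genes in each of the 16 tumour libraries by group, with a bar at the mean and whiskers for the SD of 4 libraries. Fkbp5 and Ldha in ADF+ENZ overlap Vehicle, whereas Lbp, Il18r1, Nr1h4, B4galnt1, Ero1l and Stat2 lie below every Vehicle library and Pmepa1, Mir212, Ucp2 and Ptgfrn above.

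Over the list of 60 androgen-responsive genes, 51 were tested, of which 4 were higher (7.84%, beside 5.97% of all tested genes), 8 lower (15.7%, beside 6.53%) and 39 did not pass, with a median log2 change of -0.12. Over the fits without 1 library 2 to 4 were higher (2 without ADF+ENZ replicate 3 or Vehicle replicate 1) and 6 to 10 lower. With the share of reads not aligned in the fit 0 were higher and 1 lower. Among those that rose was Pmepa1, which encodes an inhibitor of TGF-beta signalling, from 409.9, 421, 294 and 476 CPM in Vehicle to 551, 941, 869 and 761 CPM in ADF+ENZ (log2 0.96, SE 0.149, edgeR adjusted p = 0.000654). Among those that fell were Acsl3, a long-chain acyl-CoA synthetase gene (log2 -0.93, edgeR adjusted p = 0.00122), and Ndrg1, which is induced by androgen and also by low oxygen (log2 -0.84, 0.00218). Krt19, a keratin of luminal and progenitor epithelium that is on both this list and the luminal marker list, had 169 counts over the Vehicle libraries and 1 count over the ADF+ENZ libraries. That is a ratio of 153 at equal depth, with an interval from 27.04 to 6068. This interval is for counting error only and leaves out the spread between tumours. The edgeR log2 change of Krt19 was -6.67 (edgeR adjusted p = 0.00126), and the 3 ADF+ENZ libraries other than replicate 1 had 0 counts.

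Of 25 glucocorticoid-induced genes, 24 were tested, with a median log2 change of 0.13. Of these, 4 were higher (16.7%, beside 5.97% of all tested genes) and 4 lower (16.7%, beside 6.53%). The higher count was 1 without ADF+ENZ replicate 1 or Vehicle replicate 1, 2 without ADF+ENZ replicate 2 or 3 or Vehicle replicate 2 or 3, and 0 with the share of reads not aligned in the fit. Dusp1, a phosphatase that switches off MAP kinases, rose from 88.7, 79.5, 85.3 and 65.1 CPM to 110.4, 133, 146 and 113 CPM (log2 0.66, SE 0.131, edgeR adjusted p = 0.00398). Mt1, a metallothionein gene that binds zinc, fell by 0.57 in log2 terms (SE 0.112, edgeR adjusted p = 0.003302), and 1 ADF+ENZ library (129 CPM) reached into the Vehicle range. The higher count held at 1 to 4 and the lower count at 4 to 5 in the fits without 1 of the 8 libraries. With the share of reads not aligned in the fit, Krt19 and Lcn2 were the members of these 2 lists that still passed.

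The largest losses fell on genes of varied function. Lbp encodes the plasma protein that hands bacterial lipopolysaccharide to CD14. It was at 161, 163, 96.2 and 273 CPM in Vehicle and at 8.01, 19.5, 2.63 and 14.7 CPM in ADF+ENZ. Every ADF+ENZ library was far below every Vehicle library, and the log2 change was -3.89 (SE 0.471, edgeR adjusted p = 0.000432). Lcn2, an iron-siderophore binding protein of inflamed epithelium, went from 23.4, 23.04, 31.7 and 11.99 CPM to 1.88, 3.65, 1.53 and 1.05 CPM (log2 -3.48, SE 0.4599, edgeR adjusted p = 0.000477). Serpina3m, a secreted protease inhibitor, fell by 3.73, but it has close paralogs between which reads may have been split. Lamc3, a laminin chain of basement membrane, fell by 2.99 (edgeR adjusted p = 0.000176) and Nebl, an actin-binding protein, by 3.05 (0.00146).

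Other large losses were in the following genes. Cldn10, a tight junction claudin, fell by 3.35 on the log2 scale, Ppp1r1b, a protein phosphatase inhibitor, fell by 3.16, and Gad2, which makes GABA from glutamate, fell by 3.14. Ppp1r3c, which brings a phosphatase to glycogen, fell by 2.83 (SE 0.512, edgeR adjusted p = 0.00388). Vgll2, a cofactor of TEAD transcription factors, had 4 counts in ADF+ENZ, and its Vehicle mean was set mostly by replicate 4, at 6.91 CPM against 0.743 to 1.11 CPM in the other 3. All of these had Vehicle and ADF+ENZ ranges apart, which the choice of the largest changes required, so the separation is not a separate result. With the share of reads not aligned in the fit, Lbp, Lcn2, Lamc3 and Nebl still passed, and Serpina3m, Cldn10, Ppp1r1b, Gad2, Ppp1r3c and Vgll2 did not.

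The smallest p-values among lower genes belonged to tightly measured members. B4galnt1, the ganglioside synthase that forms GM2 and GD2, was at 41.6, 46.6, 49.3 and 44.2 CPM in Vehicle and 14.5, 13.4, 12.3 and 15.8 CPM in ADF+ENZ (log2 -1.69, SE 0.111, edgeR adjusted p = 7.23e-08). Nr1h4, which encodes the bile acid receptor FXR, was at 14.98, 14.98, 15.1 and 15.3 CPM in Vehicle and 2.86, 2.06, 1.21 and 2.18 CPM in ADF+ENZ (log2 -2.83, SE 0.269, edgeR adjusted p = 9.28e-06). Neither gene had a value of one group near those of the other. Msln, encoding the surface protein mesothelin, fell by 1.24 (edgeR adjusted p = 3.2e-06), and Suox, the sulfite oxidase gene, by 1.28 (7.92e-06). Synm, an intermediate filament protein, fell by 2.32 (9.28e-06), and Serpinb9, an intracellular inhibitor of granzyme B, by 1.68 (9.28e-06). Adgrg2, an adhesion receptor known from the male reproductive tract, fell from 78.99, 121, 107 and 149.9 CPM to 18.95, 29.4, 19.1 and 21.2 CPM (log2 -2.36, 1.6e-05). All 7 also passed with the share of reads not aligned in the fit.

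Fewer genes rose by as much. Lrrc15, a leucine-rich repeat membrane protein of mesenchymal cells, rose from 12.7, 6.57, 3.86 and 8.45 CPM in Vehicle to 81.4, 26.8, 137 and 28.9 CPM in ADF+ENZ. ADF+ENZ replicates 1 and 3 were well above replicates 2 and 4, and the log2 change was 3.09 (SE 0.621, edgeR adjusted p = 0.00774). Ptgfr, the prostaglandin F2-alpha receptor, rose by a log2 value of 1.78 (SE 0.391, edgeR adjusted p = 0.0119), from 28.5, 15.9, 29.3 and 11.99 CPM to 84.5, 55.9, 118 and 37.02 CPM. Nek10, a kinase gene, rose by 1.91 (0.000848), and Siglec15, a sialic acid receptor gene, by 2.27 (0.00624). Apoc4, Fam131b, Lrrn3 and Tmem179 were also among the 12 largest gains, at log2 values from 1.84 to 2.47. Chrna1 (2.02), Jaml (1.98) and Abca8a (1.82) were among them too, but each lost its call in 3 or more of the 8 fits without 1 library, and the last of the 12, Mir212, is described below. Capn6, a calpain without protease activity and not one of the 12, rose by 1.54 (0.00361). None of the genes in this paragraph other than Mir212 passed with the share of reads not aligned in the fit.

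Among the best measured gains was Ucp2, a carrier of the inner mitochondrial membrane, from 143, 168, 149.6 and 171 CPM in Vehicle to 319, 284, 288 and 266 CPM in ADF+ENZ (log2 0.87, SE 0.0856, edgeR adjusted p = 9.28e-06). Ptgfrn, a partner of tetraspanins at the cell surface, went from 283, 249, 245 and 264 CPM to 417, 432, 511 and 402 CPM (log2 0.76, SE 0.08402, edgeR adjusted p = 2.55e-05). Sorcs2, a sorting receptor of the sortilin family, rose by 1.29 (8.64e-05), Vash2, a tubulin-processing enzyme gene, by 1.01 (8.72e-05), and Pitpnm2, a phosphatidylinositol transfer protein gene, by 0.65 (9.05e-05). In all 5 the lowest ADF+ENZ library lay above the highest Vehicle library. These 5 passed with the share of reads not aligned in the fit.

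The annotated hairpin Mir212 also rose, and its mature sequences are shown because it shares its seed with its neighbour Mir132. Capitals mark the seed, bases 2 to 8, in RefSeq sequences on the plus strand of GRCm38.p6, at chr11:75173443-75173464 for miR-212-3p and chr11:75173723-75173744 for miR-132-3p.
miR-212-3p: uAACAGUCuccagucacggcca
miR-132-3p: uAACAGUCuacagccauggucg
Reads counted on Mir212 went from 2.67, 1.37, 1.83 and 1.33 CPM in Vehicle to 5.47, 7.301, 10.6 and 7.31 CPM in ADF+ENZ, without overlap (log2 2.08, SE 0.239, edgeR adjusted p = 3.29e-05), and the call held with the share of reads not aligned in the fit. Mir132, looked up after its values were seen, went from 0.594, 0.4001, 0.393 and 0 CPM to 0.735, 1.79, 1.64 and 1.62 CPM (log2 2.07, edgeR adjusted p = 0.0141), and that call did not hold with this covariate. These are reads of libraries made from total RNA over the hairpin span and do not measure the mature miRNA. Whether counting used strand is not stated in the labels.

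Glycolysis and the low-oxygen response fell together. HIF-1 is the transcription factor that accumulates when prolyl hydroxylases lack oxygen, and it binds the letters ACGTG in promoters of glycolytic enzymes and of its own regulators. Of 25 glycolysis genes, all tested, 15 were lower (60%, beside 6.53% of all tested genes), 0 higher and 10 did not pass. Their median log2 change was -0.56 beside 0.000125 over all genes. Of 36 other hypoxia-response genes, all tested, 19 were lower (52.8%) and 0 higher, with a median of -0.48. The lower counts ranged over 12 to 17 and 13 to 19 in the fits without 1 of the 8 libraries. With the share of reads not aligned in the fit they were 5 and 5, of which Pdk1, Pgk1, Ldha, Ero1l, P4ha1, P4ha2 and Egln3 are described here.

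Promoter sequences are shown for 3 of these genes whose levels fell, as the 250 bases before the start site in RefSeq on GRCm38.p6, read in the direction of the gene, with each ACGTG or its reverse complement in capitals. They are chr14:45318573-45318822 on the minus strand for Ero1l, chr11:54100674-54100923 on the plus strand for P4ha2 and chr7:46845554-46845803 on the plus strand for Ldha.
Ero1l: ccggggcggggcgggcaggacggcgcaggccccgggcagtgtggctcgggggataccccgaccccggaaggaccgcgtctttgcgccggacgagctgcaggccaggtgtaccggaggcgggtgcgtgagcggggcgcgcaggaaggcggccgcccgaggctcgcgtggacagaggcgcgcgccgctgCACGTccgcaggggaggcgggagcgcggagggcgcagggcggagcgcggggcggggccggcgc
P4ha2: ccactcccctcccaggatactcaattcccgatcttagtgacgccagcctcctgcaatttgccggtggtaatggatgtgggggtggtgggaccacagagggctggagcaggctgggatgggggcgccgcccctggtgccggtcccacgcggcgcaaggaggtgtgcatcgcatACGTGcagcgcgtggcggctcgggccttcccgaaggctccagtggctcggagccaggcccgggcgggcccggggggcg
Ldha: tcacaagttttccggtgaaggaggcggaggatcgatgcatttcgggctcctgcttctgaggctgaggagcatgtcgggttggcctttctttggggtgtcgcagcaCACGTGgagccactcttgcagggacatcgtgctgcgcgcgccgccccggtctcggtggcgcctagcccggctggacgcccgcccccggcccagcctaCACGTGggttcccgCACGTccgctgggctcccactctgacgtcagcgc
In Ero1l the match begins 63 bases before the start site, in P4ha2 78 bases before it, and in Ldha 5 overlapping or separate matches are present, since CACGTG reads as ACGTG on each strand. Over windows from 250 bases before to 50 bases after the start site, searched on both strands, 25% of the 11816 tested genes with a window held ACGTG. The motif was in 11 of the 16 hypoxia members that fell and had a window (68.8%), and in 8 of 15 such glycolysis members (53.3%). Among all tested members, lower or not, it was in 55.6% and 50% of windows. The letters are a description and not a measured binding site.

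Ero1l, the oxidase that drives disulfide formation in the endoplasmic reticulum, was at 117, 108, 159.5 and 88.9 CPM in Vehicle and 36.8, 32.5, 35.3 and 28.5 CPM in ADF+ENZ. The highest ADF+ENZ value was below the lowest Vehicle value, and the log2 change was -1.84 (SE 0.185, edgeR adjusted p = 2.84e-05). P4ha2 and P4ha1, subunits of the enzyme that hydroxylates proline in collagen, fell by 1.03 (SE 0.121, edgeR adjusted p = 4.53e-05) and by 1.07 (edgeR adjusted p = 0.00107). Egln3, an oxygen-sensing prolyl hydroxylase gene and itself a HIF target, fell from 261, 225, 311 and 200.3 CPM to 96.97, 105, 124 and 79.6 CPM (log2 -1.30, SE 0.159, edgeR adjusted p = 0.000136). Pgf, a ligand of VEGF receptor 1, fell by 1.79 (0.00125). Vegfa, the main angiogenic ligand under low oxygen, was at 303, 319, 372 and 238 CPM in Vehicle and 252, 227, 301 and 259 CPM in ADF+ENZ, with overlap and a log2 change of -0.25 (SE 0.113, edgeR adjusted p = 0.159).

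Within glycolysis the entry, middle and exit of the pathway were all represented. Slc2a1, the glucose transporter GLUT1, was lower by a log2 value of 0.96 (edgeR adjusted p = 0.0182), but the call was lost without Vehicle replicate 3. Hk2, which traps glucose as its phosphate, went from 95.6, 120.5, 124 and 102 CPM to 72.05, 66.2, 72.7 and 78.8 CPM (log2 -0.61, SE 0.118, edgeR adjusted p = 0.00311). Pfkl, a phosphofructokinase subunit, fell by 1.23 (0.000983) and Aldoc, an aldolase, by 2.31 (0.000177). Pgk1, the first ATP-forming step, went from 505, 561, 644 and 364 CPM to 298, 306, 332 and 285 CPM (log2 -0.76, 0.00156). Pdk1, which holds pyruvate out of mitochondria by inhibiting pyruvate dehydrogenase, fell by 1.19 (0.000528). Ldha, which turns pyruvate into lactate, was at 682, 668, 791 and 513 CPM in Vehicle and 439.7, 440.3, 518 and 401 CPM in ADF+ENZ, where ADF+ENZ replicate 3 lay above Vehicle replicate 4 (log2 -0.56, SE 0.122, edgeR adjusted p = 0.00612). Vehicle replicate 3 was the highest library in Hk2, Pfkl, Pgk1, Pdk1, Ldha, Ero1l and Egln3, and Vehicle replicate 4 the lowest of the Vehicle libraries in all of these but Hk2.

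**Figure D3:**
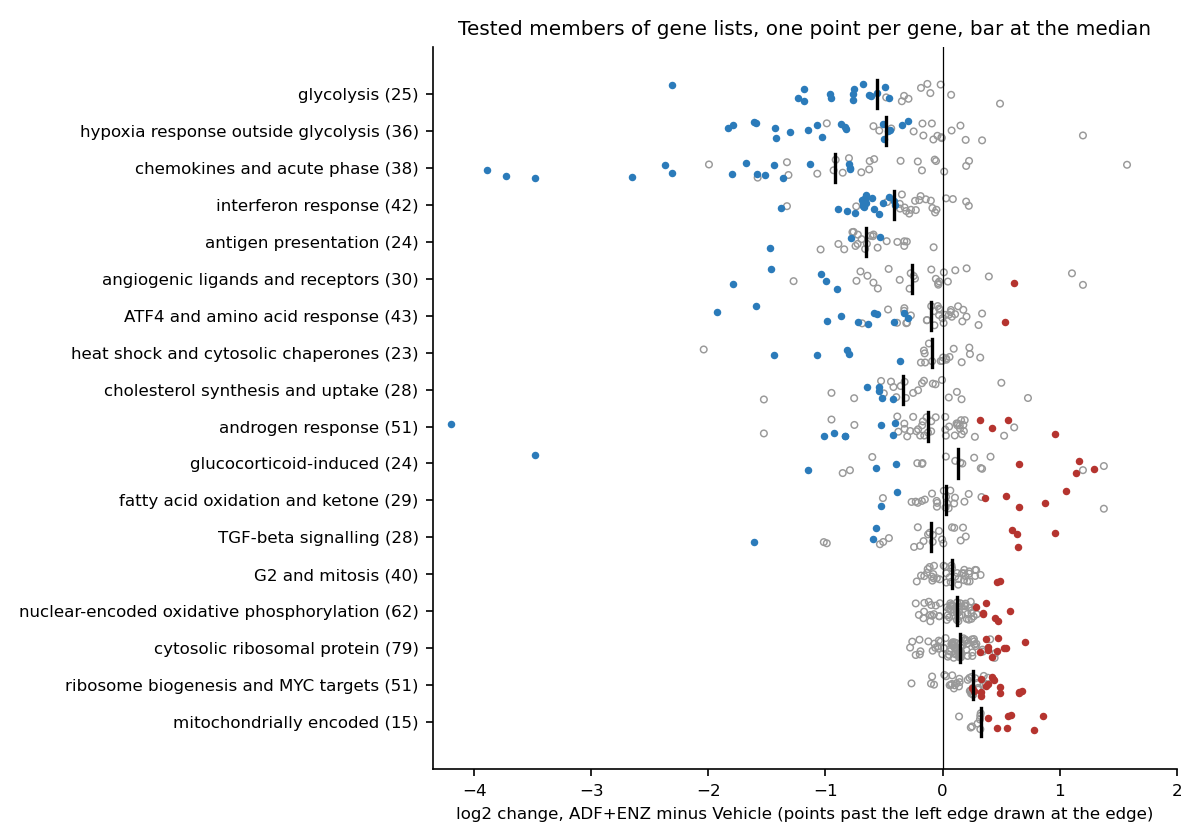
Log2 change (horizontal axis, ADF+ENZ minus Vehicle) of the tested members of 18 gene lists, with the number tested in parentheses, filled points past the edgeR threshold (blue lower, red higher), open points not past it, and a black bar at the median. Glycolysis, hypoxia, acute phase and interferon lists have filled points on the left side only, and ribosome biogenesis, ribosomal protein and mitochondrial lists on the right side only.

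Among the genes of inflammation and interferon signalling listed here, those that passed the test were lower. Type I interferon acts through STAT2 and IRF9 to raise a common set of antiviral genes, and interleukins 1, 6 and 18 raise acute phase proteins. Of 44 chemokine and acute phase genes, 38 were tested, with a median log2 change of -0.92. Of these, 16 were lower (42.1%, beside 6.53% of all tested genes) and 0 higher. Lbp and Lcn2 are on this list. Il18r1, a subunit of the interleukin 18 receptor, was at 37.1, 50.9, 55.2 and 54.7 CPM in Vehicle and 6.04, 9.16, 5.81 and 9.86 CPM in ADF+ENZ, far apart (log2 -2.65, SE 0.271, edgeR adjusted p = 4.53e-05). Serpina3n, an acute phase protease inhibitor with near-identical paralogs, fell by 2.37 (0.0008401). The count of lower members was 10 to 13 in the fits without 1 of the 8 libraries and 3 with the share of reads not aligned in the fit, namely Lbp, Lcn2 and Il18r1. These 3 genes were also preset for naming. The lists were written with earlier results of these data known, so the share of lower members is not independent of the data.

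All 42 interferon-response genes were tested, with 38 below 0 and a median log2 change of -0.41. Of these, 19 were lower (45.2%, beside 6.53% of all tested genes) and 0 higher. Isg20, an antiviral RNA exonuclease, fell by 1.38 (SE 0.181, edgeR adjusted p = 0.000139) and Bst2, which tethers virus particles to the cell, by 0.69 (0.00159). Stat2, a signal transducer of type I interferon, was at 59.1, 52.7, 62.2 and 64.5 CPM in Vehicle and 39.6, 38.5, 35.5 and 35.6 CPM in ADF+ENZ, without overlap (log2 -0.68, SE 0.125, edgeR adjusted p = 0.002301). Ddx58, the RNA sensor RIG-I, fell by 0.46 (0.00388). The promoter of Stat2 is shown for its match to the interferon-response letters, a pair of GAAA with 2 bases of any kind between them on either strand, in capitals, in the 250 bases before the start site at chr10:128270248-128270497 on the plus strand of GRCm38.p6 from RefSeq.
Stat2: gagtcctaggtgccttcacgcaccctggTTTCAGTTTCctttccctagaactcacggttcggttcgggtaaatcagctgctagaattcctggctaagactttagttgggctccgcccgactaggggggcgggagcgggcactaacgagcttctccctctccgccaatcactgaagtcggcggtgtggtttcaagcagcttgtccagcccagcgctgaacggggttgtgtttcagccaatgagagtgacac
The match begins 222 bases before the start site. In the windows described above, these letters, chosen after seeing the data, were in 3.11% of tested genes, in 19 of 31 tested interferon members with a window (61.3%) and in 7 of the 13 that fell (53.8%). Without 1 of the 8 libraries, 11 to 17 interferon members were lower, and with the share of reads not aligned in the fit only Isg20 was.

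Antigen presentation genes lay below 0 in 24 of 24 tested members, with a median log2 change of -0.65. Of these, 3 passed (12.5%, beside 6.53% of all tested genes called lower). H2-T23, the nonclassical molecule Qa-1 that ligates NK receptors, went from 59.4, 68.8, 72.5 and 75.4 CPM to 26.1, 26.7, 12.9 and 32.5 CPM (log2 -1.47, SE 0.199, edgeR adjusted p = 0.000386). Tapbp, the peptide-loading chaperone tapasin, fell by 0.78 (0.00322), and H2-T22 by 0.54 (0.00441) with ADF+ENZ replicate 4 at 55.2 CPM inside the Vehicle range. Genes of the H2 family share sequence, so reads may have been split between them. The count was 3 to 14 in the fits without 1 library. H2-T23 passed with the share of reads not aligned in the fit.

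Beside these results, summed levels of immune cell markers overlapped between the groups for macrophages, T cells, NK cells, dendritic cells and neutrophils. The 19 macrophage markers summed to 3511 to 5079.7 CPM in Vehicle and 4366 to 5502 in ADF+ENZ. Their median log2 change was -0.18, with 12 of the 19 below 0 and 7 above. Adgre1 and Fcgr1 were lower (10.5%, beside 6.53% of all tested genes) and Apoe was higher (5.26%, beside 5.97%). The outcomes of these 3 genes without 1 library were not tabulated. The 18 T cell markers summed to 14.3 to 45.9 CPM in Vehicle and 10.7 to 38.9 in ADF+ENZ. Of 17 tested, 1 was lower (5.88%, beside 6.53% of all tested genes), 16 lay below 0 and the median log2 change was -0.45. The 10 NK cell markers summed to 3.804 to 11.5 CPM in Vehicle and 3.72 to 12.99 in ADF+ENZ, and the 11 dendritic cell markers to 221 to 246 CPM in Vehicle and 202 to 253 in ADF+ENZ. The 14 neutrophil markers summed to 25.2 to 32.9 CPM in Vehicle and 27.1 to 36.3 in ADF+ENZ, with Mpo at 0. The sum of the 12 B and plasma cell markers did not overlap, at 256 to 273 CPM in Vehicle and 303 to 342 in ADF+ENZ, but most of it was Sdc1, which epithelium also makes, and 0 of 7 tested members passed. The part of these cell types in the lower interferon and chemokine genes was not tested.

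Of the ribosome building genes listed here, fewer passed than did not, and those that passed were higher. MYC binds the letters CACGTG near genes for ribosome assembly, nucleotide synthesis and translation. The mouse gene Myc itself was at 93.7, 87.9, 105 and 98.3 CPM in Vehicle and 103, 125, 148 and 121 CPM in ADF+ENZ (log2 0.37, SE 0.147, edgeR adjusted p = 0.106), with overlap, and the table does not tell the transgene's transcript from it. Of 51 ribosome biogenesis and MYC target genes, all tested, 15 were higher (29.4%, beside 5.97% of all tested genes) and 0 lower. Their median log2 change was 0.26. The higher count was 5 without ADF+ENZ replicate 3, 5 to 14 over the 8 fits without 1 library, and 0 with the share of reads not aligned in the fit. Nme1, a nucleoside diphosphate kinase gene, went from 15.3, 20.1, 14.5 and 14.5 CPM in Vehicle to 27.3, 20.9, 32.5 and 22.9 CPM in ADF+ENZ (log2 0.68, SE 0.152, edgeR adjusted p = 0.007496). Ppan, a ribosome assembly factor, rose by 0.43 (0.007496), Utp4, of the small subunit processome, by 0.42 (0.0104), and Dctpp1, a pyrophosphatase that cleans the nucleotide pool, by 0.65 (0.008697).

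The promoter of Nme1 is given as the 250 bases before its start site, chr11:93968273-93968522 on the minus strand of GRCm38.p6 from RefSeq, with CACGTG in capitals.
Nme1: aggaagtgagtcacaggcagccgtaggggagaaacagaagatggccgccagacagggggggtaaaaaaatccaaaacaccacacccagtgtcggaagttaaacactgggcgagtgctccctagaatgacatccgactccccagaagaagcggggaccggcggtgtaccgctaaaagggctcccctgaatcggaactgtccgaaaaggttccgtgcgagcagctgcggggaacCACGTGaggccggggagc
The match begins 18 bases before the start site. CACGTG was in 9.7% of windows of tested genes, in 6 of 12 windows of the members that rose (50%) and in 13 of 45 windows of all tested members (28.9%).

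Most genes of ribosomal proteins and of the respiratory chain did not pass the test, and those that passed were higher. Of 79 cytosolic ribosomal protein genes, 10 were higher (12.7%, beside 5.97% of all tested genes) and 0 lower (median log2 0.15). Among the 10 were Rpl30 (log2 0.53, SE 0.109, edgeR adjusted p = 0.00477), Rpl21 (0.37, 0.0102) and Rpl23a (0.71, 0.0115). Ribosomal protein genes have many processed pseudogenes that can take reads from them. Of 62 nuclear genes of oxidative phosphorylation, 7 were higher (11.3%) and 0 lower (median 0.13). Ndufa6, a complex I subunit, went from 30.5, 36.2, 37.7 and 36.7 CPM to 58.4, 48.2, 54.4 and 49.5 CPM (log2 0.58, SE 0.0938, edgeR adjusted p = 0.000885), and Ndufa2, of the same complex, rose by 0.47 (0.00278). All 15 tested genes of the mitochondrial genome lay above 0 and 7 passed (46.7%, median 0.33), among them mt-Co3, of complex IV (log2 0.59, 0.00218), and mt-Atp6, of ATP synthase (0.78, 0.00534). Without ADF+ENZ replicate 3 these counts were 3, 2 and 2, and with the share of reads not aligned in the fit each was 0.

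Translation control was mixed. Eef2k, the kinase that slows elongation when nutrients are short, fell from 38.2, 34.6, 40.4 and 39.3 CPM to 21.8, 21.9, 19.4 and 27.4 CPM (log2 -0.74, SE 0.117, edgeR adjusted p = 0.000691). Eif4ebp1, which blocks cap-dependent initiation when mTOR is inactive, had a log2 change of 0.20 (SE 0.257, edgeR adjusted p = 0.654) with overlapping ranges. Eef2k did not pass with the share of reads not aligned in the fit. Of 30 mTOR pathway genes tested, 5 were higher (16.7%, beside 5.97% of all tested genes) and 1 lower (3.33%, beside 6.53%). Of 46 initiation and elongation genes, 4 were higher (8.70%) and 2 lower (4.35%), near the shares over all tested genes. The higher count of initiation and elongation genes was 0 without ADF+ENZ replicate 3 or Vehicle replicate 3. Transcript counts do not measure translation.

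Fat and ketone metabolism held genes in both directions. Cpt1a, which admits long-chain fatty acids to mitochondria, rose from 221, 180.3, 247 and 177 CPM in Vehicle to 316, 305, 379.9 and 295 CPM in ADF+ENZ, without overlap (log2 0.65, SE 0.118, edgeR adjusted p = 0.00187). Eci2, an isomerase of unsaturated fatty acid oxidation, rose by 0.54 (0.0101). Oxct1, which activates ketone bodies for use, fell by 0.52 (SE 0.112, edgeR adjusted p = 0.00563). Over the 35 genes of fatty acid oxidation and ketone metabolism, 29 were tested. Of these, 5 were higher (17.2%, beside 5.97% of all tested genes), Ucp2 among them. Another 2 were lower (6.90%), near the 6.53% of all tested genes. Over 34 tested FOXO and fasting-induced genes, 1 was higher (2.94%) and 5 lower (14.7%), with a median log2 change of -0.12. The fasting marker Pdk4, an inhibitor of pyruvate dehydrogenase, was at most 1.53 CPM in the 8 libraries and did not pass (log2 1.38, SE 0.687, edgeR adjusted p = 0.201).

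Among sterol genes, 5 of 28 tested for cholesterol synthesis and uptake were lower (17.9%, beside 6.53% of all tested genes) and 0 higher. Their median log2 change was -0.34, and 2 were lower without ADF+ENZ replicate 3. Insig2, which retains the SREBP escort protein in the endoplasmic reticulum, fell by 0.54 (SE 0.102, edgeR adjusted p = 0.00256). Nr1h3, the oxysterol receptor LXR-alpha, was at 4.87, 5.26, 6.28 and 6.63 CPM in Vehicle and 1.96, 3.05, 2.63 and 2.67 CPM in ADF+ENZ, without overlap (log2 -1.15, SE 0.177, edgeR adjusted p = 0.000551). Acss2, which makes acetyl-CoA from acetate, fell by 0.80 (0.01097) with overlapping ranges. Fasn, fatty acid synthase, was higher by 0.47 (0.0153), a call lost without ADF+ENZ replicate 3 or Vehicle replicate 1 or 3, and Scd1, a desaturase, had a log2 change of 0.19 (0.3202). With the share of reads not aligned in the fit, Ucp2 and Nr1h4 were the genes of these lipid lists named here that still passed.

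The amino acid response is driven by ATF4 when amino acids are short. Of its 43 tested members, 11 were lower (25.6%, beside 6.53% of all tested genes) and 1 higher (2.33%, beside 5.97%). The lower count was 7 to 10 in the 8 fits without 1 library and 0 with the share of reads not aligned in the fit. Vldlr, a lipoprotein receptor, fell by 1.93 (SE 0.358, edgeR adjusted p = 0.00231), Gdf15, a circulating stress signal, by 0.99 (0.00308), Nupr1, a stress-induced chromatin protein, by 0.72 (0.003701) and Gpt2, mitochondrial alanine aminotransferase, by 0.64 (0.00381). Asns, asparagine synthetase, was lower by a log2 value of 0.87 (0.0425) but lost its call in 7 of the 8 fits. Trib3, an ATF4-induced pseudokinase, had a log2 change of -0.47 (0.226). Among chaperones, 5 of 23 heat shock members (21.7%) and 4 of 29 endoplasmic reticulum members (13.8%) were lower and 0 higher. Hspb1, a small heat shock protein, went from 114, 125, 247 and 127 CPM to 61.2, 60.3, 58.8 and 45.8 CPM (log2 -1.44, SE 0.223, edgeR adjusted p = 0.00133), and Sdf2l1, of the endoplasmic reticulum, fell by 0.67 (0.003496), and 0 members of these 2 lists passed with the share of reads not aligned in the fit. Hexa, a lysosomal hexosaminidase subunit, was at 195, 199.6, 218 and 212 CPM in Vehicle and 115, 109, 114 and 133 CPM in ADF+ENZ, without overlap (log2 -0.81, SE 0.0862, edgeR adjusted p = 1.71e-05), and it passed with the share of reads not aligned in the fit.

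Mki67, a nuclear protein of cycling cells, was at 307, 336, 209.8 and 277 CPM in Vehicle and 239, 336, 327 and 381 CPM in ADF+ENZ, with overlap (log2 0.18, SE 0.143, edgeR adjusted p = 0.431). Of 40 S phase genes 3 were higher and 1 lower, and of 40 genes of G2 and mitosis 2 were higher and 0 lower, so that 7.5% and 5% were higher beside 5.97% of all tested genes. The S phase counts were 1 to 7 higher and 1 to 3 lower over the fits without 1 library, with 7 higher without Vehicle replicate 2 and 1 higher without ADF+ENZ replicate 3 or Vehicle replicate 1, 3 or 4. For G2 and mitosis they were 1 to 2 higher, and all of these counts were 0 with the share of reads not aligned in the fit. Rfc3, of the clamp loader, rose by 0.51 (0.0104), Espl1, separase, rose by 0.47 (0.00522) and Rrm2, which makes deoxynucleotides, fell by 0.84 (0.00451), and these 3 did not pass with the share of reads not aligned in the fit. Of 32 p53 target genes 2 were higher (6.25%) and 3 lower (9.38%, beside 6.53% of all tested genes), with 6 higher without Vehicle replicate 2. Cdkn1a, the p21 inhibitor, had a log2 change of -0.20 (0.516), and Mdm2, the p53 ubiquitin ligase, was at 4356, 4276, 4888 and 5298 CPM in Vehicle and 5438, 5537, 6259 and 6092 CPM in ADF+ENZ without overlap, but did not pass (log2 0.31, 0.0929).

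Signalling and matrix genes that passed lay in both directions. Tgfbr3, the coreceptor betaglycan, went from 383, 389, 426 and 389 CPM to 568, 553, 819.6 and 535 CPM (log2 0.64, SE 0.131, edgeR adjusted p = 0.00428), with ADF+ENZ replicate 3 far above the rest. Tgif1, a corepressor of SMADs, rose by 0.64 (0.00117). Lamb1, a laminin chain, rose by 0.54 (0.00299) and S100a4, a calcium-binding protein of motile cells, by 0.85 (0.00973). Over 28 tested TGF-beta genes 4 were higher (14.3%, beside 5.97% of all tested genes) and 3 lower (10.7%, beside 6.53%). Over 41 collagen and matrix genes 1 was higher (2.44%) and 2 lower (4.88%), each share below that over all tested genes. Fn1, fibronectin, had a log2 change of -0.17 (0.583). Fibroblast markers summed to 11343 to 13043 CPM in Vehicle and 11668 to 13516 in ADF+ENZ.

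Of 30 angiogenic ligands and receptors, 5 were lower (16.7%, beside 6.53% of all tested genes) and 1 higher (3.33%, beside 5.97%), with a median log2 of -0.26. The lower count was 3 without ADF+ENZ replicate 1 or 3 or Vehicle replicate 3, 8 without ADF+ENZ replicate 4 and 9 without Vehicle replicate 2, the higher count was 0 to 2, and both were 0 with the share of reads not aligned in the fit. Notch4, a receptor of endothelium, went from 104, 124, 106 and 77.3 CPM to 51.3, 52.4, 41.3 and 55.1 CPM (log2 -1.04, SE 0.155, edgeR adjusted p = 0.000627), and Pdgfb, which recruits pericytes, fell by 0.90 (0.00517). The 17 endothelial markers summed to 625 to 985 CPM in Vehicle and 514 to 1003 in ADF+ENZ, and 0 of 17 passed. In the immediate early list 5 of 30 genes were lower (16.7%) and 2 higher (6.67%). Egr1 went from 24.5, 22.98, 33.4 and 22.9 CPM to 13.6, 13.1, 8.33 and 11.9 CPM (log2 -1.13, SE 0.245, edgeR adjusted p = 0.00799), and Dusp6, an ERK phosphatase that ERK itself induces, fell by 0.44 (0.00341). Of 16 clock genes tested 4 were lower (25%) and 1 higher (6.25%), among them the repressors Nfil3 (-0.85, 0.000902) and Bhlhe41 (-0.84, 0.00462). Time of day at collection is not stated in the labels. Of the genes in this and the preceding paragraph, Nfil3 alone passed with the share of reads not aligned in the fit.

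Shares of calls differed between chromosomes, of which 15 and X are described because their values stood out. On chromosome 15, 103 of 736 tested genes were higher (13.99%, beside 5.97% of all tested genes) and the median log2 change was 0.15. Library medians over its protein-coding genes with a mean of at least 5 CPM, taken as differences from the Vehicle mean, were 0.28, 0.04, 0.31 and 0.11 in the ADF+ENZ libraries and -0.10, 0.08, -0.04 and 0.05 in the Vehicle libraries. Replicates 1, 3 and 4 of ADF+ENZ were thus above every Vehicle library, and replicate 2 lay within their range. On chromosome X, 64 of 572 genes were lower (11.2%, beside 6.53%), with library medians of -0.26, -0.05, -0.26 and -0.05 in ADF+ENZ and -0.15, 0.17, -0.04 and 0.01 in Vehicle. Copy number was not tested.

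**Figure D4:**
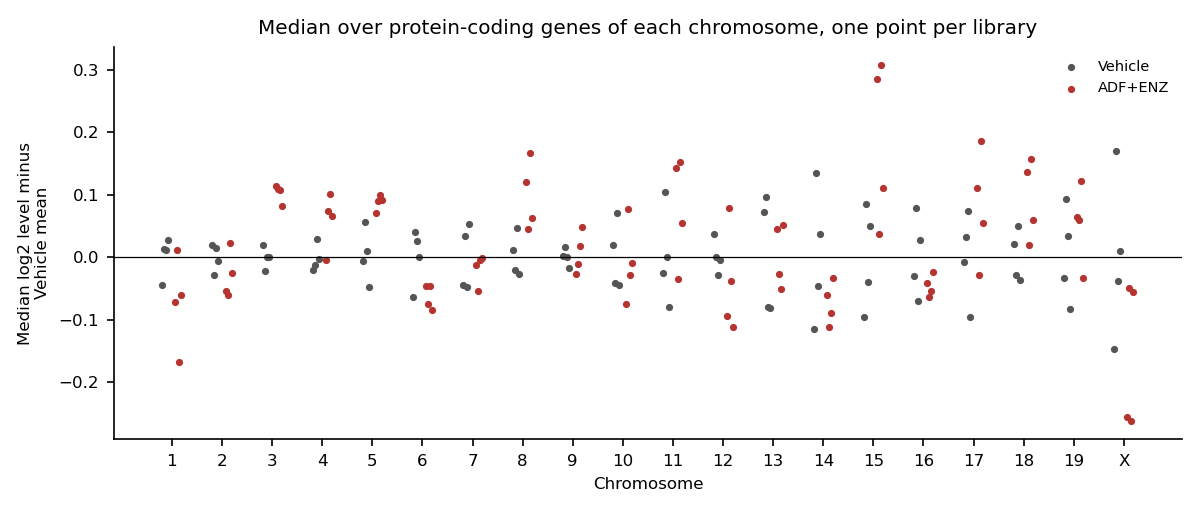
Median over the protein-coding genes of each chromosome (horizontal axis) of the log2 level minus the Vehicle mean (vertical axis), with 1 point for each Vehicle library in grey and each ADF+ENZ library in red. The highest points are ADF+ENZ replicates 1 and 3 on chromosome 15 (0.28 and 0.31), and the lowest are the same libraries on chromosome X (-0.26 each).

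The last question was where the double treatment differed from each treatment given without the other. In direct tests, 206 genes (1.09%) differed between ADF+ENZ and ENZ, 154 higher (0.813%) and 52 lower (0.274%). Between ADF+ENZ and ADF it was 3081 (16.3%), 1652 higher (8.72%) and 1429 lower (7.54%). The test of whether enzalutamide acted differently in fasted and fed mice called 587 genes (3.1%), 413 with a positive (2.18%) and 174 with a negative difference (0.918%). The 206 became 20 without ADF+ENZ replicate 3 and 5 with the share of reads not aligned in the fit. The 3081 stand beside a difference in library make-up, since reads in no feature were 30.3% to 36.7% in ADF and 21.2% to 26.1% in ADF+ENZ, and 0 passed with that share in the fit (edgeR), where 589 genes had an unadjusted p under 0.05. Of the genes described here, Ucp2, Ptgfrn, Tgfbr3, Hexa, Chst11, Sdc2 and Micall1 differed from ENZ in all 16 fits without 1 library, and of these 7 only Sdc2 did so with the share of reads not aligned in the fit. Log2 differences from ENZ were 0.55 for Ucp2, 0.78 for Tgfbr3 and -0.52 for Hexa (edgeR adjusted p = 0.00698, 0.00872 and 0.00872).

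Genes that differed in the same direction from both single treatments are described next, chosen by their p-values. Chst11, which sulfates chondroitin, was at 75.9, 78.4, 77.7 and 68.8 CPM in Vehicle, 59.6, 65.9, 68.9 and 68.4 CPM in ENZ, 57.2, 61.4, 61.2 and 64.6 CPM in ADF and 128, 80.8, 133 and 107 CPM in ADF+ENZ. All 4 ADF+ENZ libraries lay above the other 12, replicate 2 by little. It was 0.77 above ENZ and 0.88 above ADF on the log2 scale (edgeR adjusted p = 0.00449 and 0.000677). Sdc2, the heparan sulfate proteoglycan syndecan-2, was at 242, 266, 289 and 242 CPM in Vehicle and 396, 323, 396 and 371 CPM in ADF+ENZ. It was 0.69 above ENZ and 0.68 above ADF (0.00326 and 0.00116). Ust, which sulfates uronic acid of chondroitin and dermatan, was 0.72 above ENZ and 0.74 above ADF (0.00872 and 0.002099), but lost its call against ENZ and against Vehicle without ADF+ENZ replicate 3. Chst1, which sulfates keratan, was lower, at 63.4, 73.7, 64.01 and 59.7 CPM in Vehicle and 41.5, 33.6, 31.2 and 35.5 CPM in ADF+ENZ, by log2 values of -0.71 and -0.62 (0.0121 and 0.00522), and the call against ENZ was lost without ADF+ENZ replicate 3.

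Ptgfrn was 0.50 above ENZ and 0.55 above ADF (edgeR adjusted p = 0.00872 and 0.00138), and Micall1, an adaptor of recycling endosomes, 0.77 and 0.65 above (0.00449 and 0.00284). Mex3a, an RNA-binding protein, was 0.72 and 0.75 above. On the lower side were Styk1, a pseudokinase (-0.93 and -1.16), Fam102a (-0.60 and -0.61), Isyna1, which makes inositol (-0.64 and -0.73), and Kctd1 (-0.73 and -0.73). Caprin2, an RNA granule protein, was below both (-0.54 and -0.54) without passing against Vehicle (-0.28, SE 0.0992, edgeR adjusted p = 0.0732). The calls of Mex3a, Styk1, Fam102a, Isyna1, Kctd1 and Caprin2 against ENZ were lost without ADF+ENZ replicate 1 or 3 and in 1 to 3 fits without an ENZ library. Kctd1 lost its call against Vehicle without ADF+ENZ replicate 1 or 3 as well. Against Vehicle, Ptgfrn, Chst1, Styk1 and Fam102a passed with the share of reads not aligned in the fit, and the other genes of this and the preceding paragraph did not. Against ENZ, only Sdc2 of the genes in these paragraphs passed with that share in the fit. Their calls against ADF were all lost with the share of reads in no feature in the fit.

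**Figure D5:**
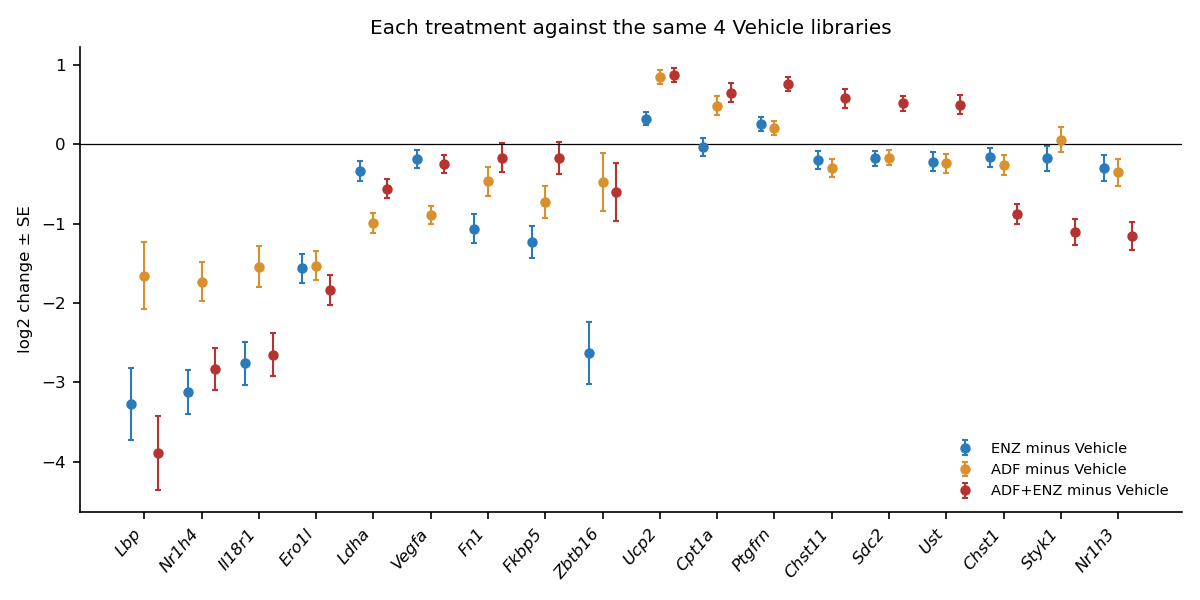
Log2 change (vertical axis, with SE) of 18 genes in ENZ (blue), ADF (orange) and ADF+ENZ (red), each against the same 4 Vehicle libraries, so the 3 values of a gene share those libraries. Chst11 is at 0.58 in ADF+ENZ, -0.19 in ENZ and -0.30 in ADF, Styk1 at -1.10, -0.18 and 0.06, and Ero1l at -1.84, -1.56 and -1.53.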

How the data were processed

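Total RNA of 16 tumours, 4 per group, was sequenced in read pairs. Groups came from the treatment label, and replicate numbers follow the order of deposition. The authors deposited raw read counts per gene, with HISAT2, Trim Galore, DESeq2 and featureCounts per the submitters' processing notes, which give no versions, and the builds mm39 and GRCh38, without roles. The table has 5 summary entries, which were used as library measures. Symbols were found for 52133 of 55414 IDs in an annotation of GRCm38, used for names, gene class and chromosome. Promoter and miRNA sequences are from RefSeq on GRCm38.p6, and 11816 tested genes had a promoter window. No coordinates of the files' own build were used.

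Counts were tested with edgeR 4.0.16 (under R 4.3.3), with robust quasi-likelihood dispersion and TMM scaling on all 16 libraries in 1 fit. Genes were kept by filterByExpr (min.count 10, min.total.count 15). P-values were adjusted by Benjamini-Hochberg over 18946 genes, with a threshold of 0.05. Library measures were compared by exact permutation. Alternatives were DESeq2 1.42.0, limma-voom (limma 3.58.1), DESeq2 size factors in edgeR, 2 other filters, only the groups compared, protein-coding genes alone, leaving out each library, and the shares of reads in no feature and not aligned as covariates. The members and lists were chosen with earlier results of these data known. Named genes were the 12 largest changes in each direction (mean of at least 1 CPM, ranges apart), up to 4 called members per list, 6 per direction against both single treatments, 6 per direction by p, and a preset list, and not all are printed. Some items are not reported here. On simulated data with 100 genes planted at 2-fold and 100 at 4-fold among 18946, this comparison recovered 70% and 93%, with 4 false calls. These values hold for the simulated counts only. The number of false calls when libraries differ in the share of reads not aligned was not tested. Pairs of libraries within a group differed by a chi-square per degree of freedom of 9.13 to 36.7, above counting error.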

Additional observations from a re-analysis of the deposited data

Results flagged for a closer look

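For 32 of the genes described, out of 587 in all, the response to enzalutamide differed between fasted and fed mice by edgeR's test of the interaction. The value is the enzalutamide effect in fasted mice minus that in fed mice on the log2 scale, over 4 tumours per group, and adjusted p-values ran from 0.000837 to 0.0489. In the glycolysis and hypoxia group it was 1.73 for Aldoc, 1.25 for Ero1l, 0.69 for Hk2, 0.77 for Ldha, 1.20 for Ndrg1, 0.94 for P4ha1, 1.04 for P4ha2, 1.71 for Pgf, 0.74 for Pgk1, 1.42 for Slc2a1 and 0.83 for Vegfa. Among steroid-responsive, immune and metabolic genes it was 1.79 for Fkbp5, 2.51 for Zbtb16, 1.18 for Mt1, 2.08 for Adgrg2, 2.02 for Nr1h4, 1.65 for Il18r1, 1.36 for Fn1, 0.79 for Scd1, 1.65 for Nfil3, 1.35 for Suox and 1.74 for Synm. It was also 1.07 for Chst11, 0.86 for Sdc2 and 0.95 for Ust. It was negative at -1.60 for Capn6, -0.80 for Caprin2, -0.71 for Isyna1, -0.87 for Kctd1, -1.41 for Mir212, -1.63 for Nek10 and -0.99 for Styk1. A positive value in a gene that fell under each treatment means that the 2 changes together were smaller than their sum. All 32 calls were lost with the no-feature share of reads in the fit, 1 was lost with the share not aligned, and 15 passed in each of the 16 fits without 1 library. ADF libraries had 30.3% to 36.7% of reads in no feature, above every library of the other groups. The part of that share in these values therefore cannot be told apart from the ADF group by these libraries.

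A library stood apart from the other 3 of its group in 19 of 280 values checked, beside about 1 in 20 that the critical value allows by chance. The share of reads not aligned was 16.7% in ADF+ENZ replicate 3. In CPM, the same library was apart in Tgfbr3 (819.6), Utp4 (47.3) and Synm (5.48). ADF+ENZ replicate 1 was apart in Krt19 (0.0817) and Mir132 (0.735), replicate 2 in Lamc3 (5.64), and replicate 4 in H2-T22 (55.2) and Hspb1 (45.8). Vehicle replicate 3 was apart in Egr1 (33.4), Hspb1 (247), Serpina3m (76.2) and Tgfbr3 (426). Vehicle replicate 4 was apart in Cldn10 (13.2), Isyna1 (12.6), Tmprss2 (0.608) and Vgll2 (6.91), replicate 1 in Fkbp5 (306) and replicate 2 in Nme1 (20.1).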

How the results depend on the processing

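The direction of the 2369 calls between ADF+ENZ and Vehicle held in every alternative in which the gene was tested. These alternatives reuse the libraries in which the genes were called, so a kept direction is not independent support. Of 181 named genes past the threshold, 134 passed in each of the 8 fits without 1 Vehicle or ADF+ENZ library and 37 with the share of reads not aligned as a covariate. Leaving out 1 library gave 1202 to 2489 calls, 500 to 1197 higher and 702 to 1292 lower. With the no-feature share of reads in the fit 1579 passed, 673 of them higher, and with the share not aligned 112 (29 higher, 83 lower), with 2354 genes at an unadjusted p under 0.05 in place of 5292. Between ADF+ENZ and ENZ, 206 calls became 693 by DESeq2, 54 with only the groups compared, 43 and 5 with the 2 covariates, and 20 to 358 without 1 library. Between ADF+ENZ and ADF, 3081 became 1922 in protein-coding genes alone, 0 and 1130 with the 2 covariates, and 1197 to 3439 without 1 library. The interaction (587) became 1363 by DESeq2, 350 in protein-coding genes alone, 0 with the no-feature share (edgeR, with 1014 genes at an unadjusted p under 0.05), and 148 to 908 without 1 library. No paired analysis was possible because the labels give no replicate numbers that groups share. Depth limits genes near 0, where no count in a group still allows 0.0443 CPM in Vehicle and 0.0490 CPM in ADF+ENZ.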
